A study of Mus musculus with 2 samples.

Results

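The chemokines and chemokine receptors were examined in 2 rhabdoid tumors of mice, 54 protein-coding genes of the 55416 genes counted. Members were chosen by name, as numbered CC and CXC ligands (Ccl, Cxcl), CC and CXC receptors (Ccr, Cxcr) and atypical receptors (Ackr), which gave 35 ligands, 10 CC receptors, 5 CXC receptors and 4 atypical receptors. The receptors are not a complete set. Rhabdoid tumors are malignant tumors that mostly lack Smarcb1, part of the SWI/SNF complex that remodels chromatin. Both tumors arose in Dppa3-cre::Smarcb1 Fl/+ mice on a C57BL/6 background, in which 1 Smarcb1 allele was floxed and Cre was knocked into Dppa3, which primordial germ cells express. The tumor labelled intracranial lay at the trigeminal nerve and the tumor labelled extracranial in the facial, maxillar region, and both were classified as MYC, a molecular subgroup of these tumors. Bulk RNA-seq was performed on 1 library per location, without normal tissue or a tumor of another genotype beside them, and the age of the mice is not given in the sources used here. The libraries held 34545846 (intracranial) and 26915696 (extracranial) counts.

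Chemokines are small secreted proteins that bind G protein-coupled receptors on leukocytes and on some stromal and tumor cells, and direct their movement along a gradient. Inflammatory ligands are induced at sites of injury or infection and attract monocytes, neutrophils or activated T cells, whereas homeostatic ligands organise lymphoid tissue and the trafficking of resting cells. Atypical receptors bind chemokines without G protein signalling and take them up or transport them, which shapes the amount of free ligand.

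Because there was 1 library per location, no difference below has a replicate check and no p-value is given. Where both libraries together gave at least 10 counts for a gene, its ratio, extracranial over intracranial, was computed from counts per 1000000 (CPM) on scaled library sizes. The ratio carries a 95% interval of counting error, and genes are called when that interval lies wholly beyond 4-fold. Calls therefore compare these 2 libraries, not the 2 locations. Background was set at 3 counts, which is 0.0863 CPM (intracranial) and 0.112 CPM (extracranial).

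The labels were compared with the targeted gene and with markers first. Smarcb1 had 365 counts (10.5 CPM) in the library labelled intracranial and 530 counts (19.8 CPM) in the library labelled extracranial. Host cells in a bulk tumor keep Smarcb1, and counts per gene do not show whether reads came from the floxed part. The study used 5 genes as markers of extracranial tumor cells, and all 5 had their higher level in the intracranial library, 4 of them by the 4-fold rule. Keratinocyte markers were also far more abundant there, with 8 of 8 higher and a summed level of 21447 CPM against 3.10 CPM. Krt5, Krt6a, Trp63 and Dsg3 had 0 counts in the library labelled extracranial. These values go against the labels. The study's location markers came from single tumor cells of other mouse models, whereas these are bulk tumors that also hold host cells. Whether the labels were exchanged, or other tissue was taken with the tumor, was not tested, so the direction of every ratio rests on the labels as given and the libraries are named by them throughout.

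Most of the family was transcribed in both tumors, and its members went in both directions. More than 3 counts were found for 50 of the 54 members, 49 of them in the intracranial and 43 in the extracranial library. The 4 at background in both were Ccl20 (2 and 0 counts), Cxcr1 (1 and 2 counts), and Ccl26 and Cxcl15, with 0 counts in both, which allows a level of up to 0.106 and 0.138 CPM. Ratios could be given for 48 members, since Ccr6 (7 and 2 counts) and Ccr8 (4 and 2 counts) stayed under 10. Higher in the library labelled extracranial by the 4-fold rule were 5 members (Cxcl9, Ccr2, Ccl8, Cxcr3 and Ccr7), or 10.4% of the 48, against 1.78% of all 21977 genes tested. Higher in the library labelled intracranial were 9 members (Cxcl5, Cxcl3, Cxcl2, Cxcl1, Ccl21a, Ccl21b, Cxcl17, Ccl11 and Ackr3), or 18.8%, against 5.41% of all genes. With the interval beyond 2-fold, the counts were 9 members (18.8%, against 5.86% of all genes) and 11 members (22.9%, against 9.77%). A total of 22 members stayed within 2-fold by their ratio. The median log2 ratio of the 48 was -0.21, beside -0.04 over all genes tested.

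**Figure D1:**
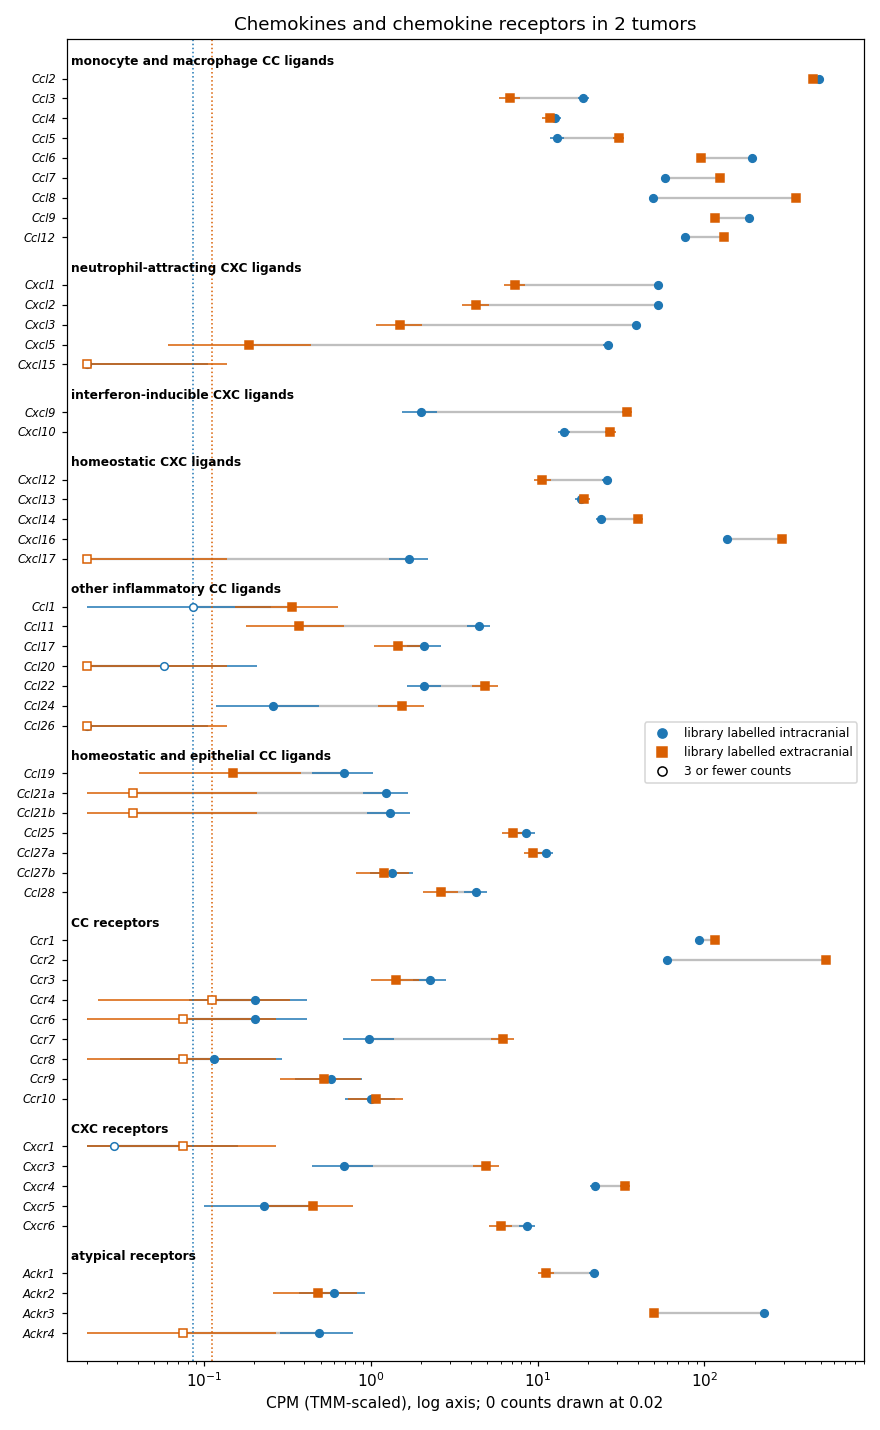
Level of the members reported here in both libraries, by role, in CPM on a log axis. Circles stand for the library labelled intracranial, squares for the library labelled extracranial, horizontal bars for the 95% counting interval, open symbols for 3 or fewer counts and dotted lines for the level of 3 counts in each library. The 4 neutrophil-attracting ligands above background lie to the left in the library labelled extracranial, and Ccl8, Cxcl9, Ccr2, Ccr7 and Cxcr3 lie to the right.

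**Figure D2:**
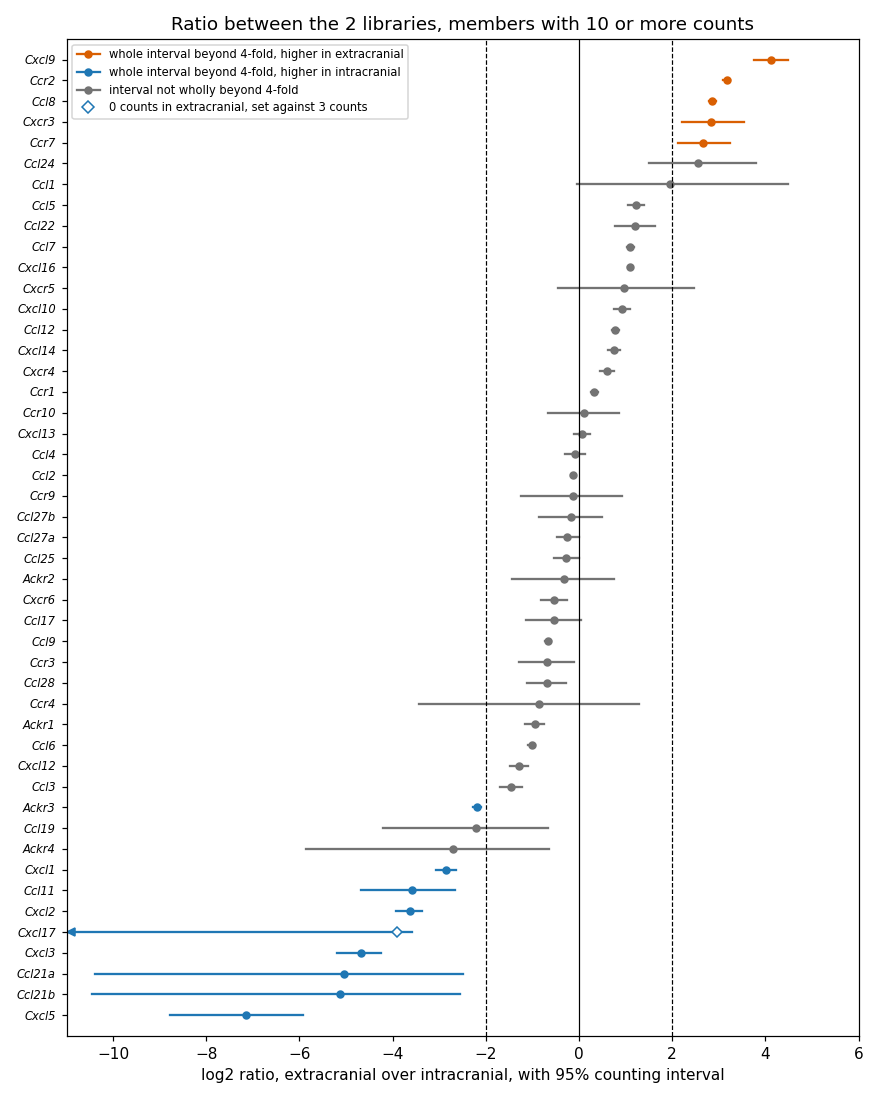
Log2 ratio of the library labelled extracranial over the library labelled intracranial for the members reported here with 10 or more counts, with 95% counting intervals. Dashed lines mark 4-fold in each direction. The values run from 4.11 for Cxcl9 to -7.15 for Cxcl5, and the interval of Cxcl17, with 0 counts in the library labelled extracranial, is open to the left.

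The monocyte and macrophage ligands formed the most abundant group, and only 1 of its 9 members, Ccl8, was called. Their summed level was 1093 CPM in the library labelled intracranial and 1319.7 CPM in the library labelled extracranial, a log2 ratio of 0.27 (95% interval 0.25 to 0.29). In bulk samples, fewer cells of a type and less RNA per cell cannot be told apart, here and in every result below. Ccl2, the main monocyte attractant and a ligand of Ccr2, had 16929 counts (487 CPM) and 12007 counts (449 CPM), a log2 ratio of only -0.12 (-0.15 to -0.08). Ccl7 and Ccl12, the other Ccr2 ligands examined, lay on the opposite side. Ccl7 had 2019 counts (58.1 CPM) against 3331 (124 CPM), a log2 ratio of 1.10 (1.02 to 1.18). Ccl12 had 2659 counts (76.5 CPM) against 3505 (131 CPM), a log2 ratio of 0.78 (0.70 to 0.85). The 3 Ccr2 ligands together came to 622 and 704 CPM, so that their sum differed by 1.13-fold.

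Ccl8 (ENSMUSG00000009185), which in mice acts on Ccr8, stood apart from these neighbours. It had 1710 counts (49.2 CPM) in the library labelled intracranial and 9514 counts (356 CPM) in the library labelled extracranial, 7.22-fold higher there (6.86 to 7.61). Its receptor Ccr8 was close to background in both. The ligands that act mainly on Ccr1 went the other way, although neither passed the 4-fold rule. Ccl6 had 6692 counts (193 CPM) against 2540 (94.9 CPM), and Ccl9 had 6417 counts (185 CPM) against 3096 (116 CPM), log2 ratios of -1.02 and -0.67.

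Ccl3, Ccl4 and Ccl5, which attract macrophages and T cells, did not move as one. Ccl3 had 652 counts (18.8 CPM) in the library labelled intracranial against 183 (6.84 CPM), and its log2 ratio of -1.46 (-1.70 to -1.22) passed the 2-fold rule. Ccl4 was at 441 counts (12.7 CPM) against 319 (11.9 CPM), with an interval across 0 (-0.30 to 0.12). Ccl5, which T cells, NK cells and macrophages make, passed the 2-fold rule in the opposite direction, with 455 counts (13.1 CPM) against 819 (30.6 CPM) and a log2 ratio of 1.22 (1.06 to 1.39).

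Among the receptors for these ligands, Ccr2 differed most. Ccr2 (ENSMUSG00000049103), which marks inflammatory monocytes and draws them out of the bone marrow and into tissue, had 2065 counts (59.4 CPM) in the library labelled intracranial and 14296 counts (534 CPM) in the library labelled extracranial. This was 8.99-fold higher (8.58 to 9.42), while the summed level of its ligands differed little. Ccr1 had 3208 counts (92.3 CPM) against 3093 (116 CPM), a log2 ratio of 0.32 (0.25 to 0.40). Only 1.20% of the read-length windows of Ccr2 also occurred in another gene. Cx3cr1, the fractalkine receptor of resident macrophages and patrolling monocytes, which the naming rule leaves out, was at 154 CPM against 587 CPM, a log2 ratio of 1.93.

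Macrophage markers moved in the same direction as Ccr2 and Ccl8. Each of the 9 had its higher level in the library labelled extracranial, 7 passed the 2-fold rule and 0 passed the 4-fold rule. Their summed level was 5781 CPM against 12991 CPM, a log2 ratio of 1.17, and none of them had 0 counts. The largest single marker ratio was that of Adgre1, at 1.89, beside 3.17 for Ccr2 and 2.85 for Ccl8. Fibroblast markers summed to 3249 and 4801 CPM, with Dcn and Lum called higher in the library labelled extracranial and Col1a1 and Pdgfra higher in the other. The part of these cells in the chemokine results was not tested.

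The neutrophil-attracting CXC ligands showed the widest difference of any group. All 4 that were above background (Cxcl1, Cxcl2, Cxcl3 and Cxcl5) were called higher in the library labelled intracranial, and the fifth, Cxcl15, had 0 counts in both. These ligands share a Glu-Leu-Arg motif before the first cysteines and attract neutrophils. Their summed level was 171 CPM against 13.2 CPM, 12.9-fold higher (11.6 to 14.4). Cxcl1 (ENSMUSG00000029380) had 1825 counts (52.5 CPM) in the library labelled intracranial and 195 counts (7.29 CPM) in the library labelled extracranial, 7.21-fold higher (6.21 to 8.40). Cxcl2 (ENSMUSG00000058427) was nearly as abundant in the first, at 1837 counts (52.9 CPM) against 114 (4.26 CPM), and differed by 12.4-fold (10.3 to 15.1). Cxcl3 (ENSMUSG00000029379) differed by 25.9-fold (18.9 to 36.4), from 1344 counts (38.7 CPM) to 40 (1.49 CPM). The widest ratio of the family was that of Cxcl5 (ENSMUSG00000029371), which epithelial cells make, with 919 counts (26.4 CPM) versus 5 counts (0.187 CPM). It was 142-fold higher, and the interval of 60.4 to 437 shows how few counts stand behind the lower value. Cxcl2 and Cxcl3 shared 4.72% and 2.86% of their read-length windows with each other, and Cxcl1 shared 0.

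These 4 genes lie in 1 cluster on chromosome 5, which made their upstream sequence of interest. The 250 bases before the start site were taken from RefSeq (GRCm38.p6), where a window was given for 40 of the 54 members. Cxcl5 had no window and was not searched. Windows were searched on both strands for the letters bound by NF-kB (kB, as GGGNNTTTCC or GGGANNTTCC, which can overlap each other), by interferon-regulatory factors (ISRE, TTTCNNTTTC) and by STAT dimers (GAS, TTCNNNGAA). Among all 32851 windows, 2.26% held kB letters, 2.98% ISRE letters and 7.02% GAS letters. Of the 4 neutrophil attractants with a window, Cxcl15 held no kB letters, and the 3 that did are printed 5′ to 3′ on their own strand, with the matched letters in capitals.
Cxcl1: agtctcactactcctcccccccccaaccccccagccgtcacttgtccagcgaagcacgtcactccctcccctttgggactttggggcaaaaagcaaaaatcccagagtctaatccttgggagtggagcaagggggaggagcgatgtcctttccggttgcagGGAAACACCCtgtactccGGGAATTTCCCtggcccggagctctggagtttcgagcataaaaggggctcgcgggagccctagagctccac
Cxcl2: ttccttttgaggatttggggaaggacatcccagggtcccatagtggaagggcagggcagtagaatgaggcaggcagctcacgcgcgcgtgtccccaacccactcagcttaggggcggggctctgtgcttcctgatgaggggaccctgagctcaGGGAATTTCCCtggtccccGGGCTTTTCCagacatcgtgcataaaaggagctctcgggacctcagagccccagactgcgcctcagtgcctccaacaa
Cxcl3: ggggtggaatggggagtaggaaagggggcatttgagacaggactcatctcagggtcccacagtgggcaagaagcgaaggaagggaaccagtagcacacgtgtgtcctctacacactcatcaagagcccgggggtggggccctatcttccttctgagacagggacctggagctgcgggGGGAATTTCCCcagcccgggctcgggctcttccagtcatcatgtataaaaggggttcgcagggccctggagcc
Windows lie at chr5:90890995-90891244 for Cxcl1, chr5:90903649-90903898 for Cxcl2 and chr5:90785851-90786100 for Cxcl3, all on the plus strand. Counted back from the start site, the run GGGAATTTCCC was found in these 3 windows, from -71 to -61 in Cxcl1, from -97 to -87 in Cxcl2 and from -73 to -63 in Cxcl3. Cxcl1 and Cxcl2 each held another kB match, GGAAACACCC from -89 to -80 and GGGCTTTTCC from -78 to -69. Of the 40 members with a window, 8 held kB letters, 3 held ISRE letters and 3 held GAS letters. Of the other members with kB letters, Cxcl10 was higher in the library labelled extracranial by its ratio, and Ccl9 and Ccr3 in the other. Ccl1 had an interval that spanned 0, and Ccl20 was at background in both libraries. A letter match describes the sequence and does not show that a factor is bound.

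Ppbp, a platelet chemokine of the same gene cluster that the naming rule leaves out, was also called, with 250 counts (7.19 CPM) in the library labelled intracranial against 24 (0.897 CPM). Pf4, the other platelet chemokine of the cluster, was at 94.1 CPM against 85.0 CPM, a log2 ratio of -0.15. Cytokines that induce these ligands were split. Il1a had 497 counts (14.3 CPM) against 17 (0.635 CPM) and Il17a had 70 counts against 0, both called, whereas Il1b was at 70.5 CPM against 95.6 CPM and Tnf at 6.62 CPM against 9.72 CPM. Transcripts of the NF-kB subunits Nfkb1 and Rela and of their inhibitor Nfkbia had log2 ratios of -0.09, -0.24 and -0.05.

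Neutrophil and keratinocyte markers moved with these ligands. Of 8 neutrophil markers, 6 had enough counts and 5 of these were called higher in the library labelled intracranial (S100a8, S100a9, Retnlg, Mmp8 and Camp), with a summed level of 708 CPM against 58.8 CPM. S100a8 and S100a9, which stressed keratinocytes also make, held most of this, at 258 and 416 CPM against 0.336 and 0.486 CPM. The more specific neutrophil gene Ly6g had 4 and 1 counts, and Csf3r, the G-CSF receptor, lay higher in the library labelled extracranial (19.9 CPM against 57.6 CPM). Retnlg and Ngp had 0 counts in the library labelled extracranial. The part of either cell type in the ligand result was not tested.

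The interferon-inducible CXC ligands lay on the other side. Cxcl9 (ENSMUSG00000029417), induced by interferon gamma and a ligand of Cxcr3 on activated T and NK cells, had 69 counts (1.99 CPM) in the library labelled intracranial and 917 counts (34.3 CPM) in the library labelled extracranial. It was 17.3-fold higher there (13.5 to 22.4), the widest ratio of the family in this direction. Cxcl10, which binds the same receptor, had 501 counts (14.4 CPM) against 731 (27.3 CPM), a log2 ratio of 0.92 (0.76 to 1.09) that passed neither rule. Cxcl11, the other Cxcr3 ligand, is annotated as a polymorphic pseudogene and is no member, and had 6 and 7 counts. Cxcl9 and Cxcl10 lie near each other on chromosome 5, and their windows are shown because their ratios differed so much.
Cxcl9: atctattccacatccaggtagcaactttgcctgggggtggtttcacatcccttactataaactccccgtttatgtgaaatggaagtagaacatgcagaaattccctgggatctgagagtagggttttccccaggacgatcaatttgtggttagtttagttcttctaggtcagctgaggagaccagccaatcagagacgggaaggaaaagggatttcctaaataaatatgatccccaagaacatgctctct
Cxcl10: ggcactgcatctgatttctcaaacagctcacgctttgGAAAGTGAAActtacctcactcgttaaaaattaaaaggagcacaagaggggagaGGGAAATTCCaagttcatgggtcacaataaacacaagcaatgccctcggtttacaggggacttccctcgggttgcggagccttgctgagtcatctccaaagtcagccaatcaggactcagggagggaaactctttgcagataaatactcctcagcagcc
The windows lie on the minus strand, at chr5:92328080-92328329 for Cxcl9 and chr5:92348890-92349139 for Cxcl10. In Cxcl10, capitals mark ISRE letters from -213 to -204 and kB letters from -159 to -150. The Cxcl9 window held none of the 3 motifs, which says only that these letters are not in these 250 bases.

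Their receptor went with Cxcl9. Cxcr3 (ENSMUSG00000050232) had 24 counts (0.691 CPM) in the library labelled intracranial and 132 counts (4.93 CPM) in the library labelled extracranial, 7.14-fold higher (4.60 to 11.5). Ifng itself had 1 and 10 counts. Irf1, induced by interferon, was at 49.2 CPM against 108 CPM, a log2 ratio of 1.13. T cell markers summed to 23.9 CPM against 46.8 CPM, with 8 of 9 higher in the library labelled extracranial and none at 0. Of these, Cd4, Cd8a and Cd8b1 were called, while Cd3d, Cd3e and Cd3g had intervals that spanned 0. NK cell markers summed to 1.01 CPM against 9.23 CPM, with Nkg7 called and Ncr1 at 3 counts in each library. The part of these cells in the Cxcl9 and Cxcr3 results was not tested.

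Homeostatic CXC ligands were led by Cxcl16, a membrane-bound ligand of Cxcr6 made by macrophages and dendritic cells. Cxcl16 had 4776 counts (137 CPM) against 7840 (293 CPM), a log2 ratio of 1.09 (1.04 to 1.14) that passed the 2-fold rule. Its receptor Cxcr6 lay slightly the other way, at 301 counts (8.66 CPM) against 161 (6.02 CPM), a log2 ratio of -0.53 (-0.81 to -0.25). Of the read-length windows of Cxcl16, 15.6% also occur in the overlapping gene Zmynd15, which makes its count less certain. Cxcl14, an epithelial and stromal chemokine, had 832 counts (23.9 CPM) against 1077 (40.2 CPM), a log2 ratio of 0.75. Cxcl13, the B cell attractant of lymphoid follicles, differed little, at 630 counts (18.1 CPM) against 508 (19.0 CPM), with an interval of -0.11 to 0.24. Its receptor Cxcr5 had 8 and 12 counts. B and plasma cell markers summed to 3.25 CPM against 25.9 CPM, most of it Cd79b, which was called, and Mzb1 had 0 counts in the library labelled intracranial.

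Cxcl17 (ENSMUSG00000060188), a mucosal chemokine, had 59 counts (1.70 CPM) in the library labelled intracranial, whereas 0 were found in the other. Against the level of 3 counts it was at least 15.1-fold higher, and the counting interval of the ratio itself reached down to 11.9-fold. It was the only member above background in one library with 0 counts in the other. The keratinocyte list given above lay in the same direction, and its part in this result was not tested.

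Cxcl12 and its receptors were split. Cxcl12, a stromal ligand that retains and guides progenitor cells, had 909 counts (26.2 CPM) in the library labelled intracranial against 287 (10.7 CPM). Its log2 ratio of -1.29 (-1.48 to -1.09) passed the 2-fold rule. Ackr3 (ENSMUSG00000044337), the atypical receptor that takes up Cxcl12, was called in the same direction, with 7894 counts (227 CPM) against 1341 (50.1 CPM), 4.53-fold higher (4.28 to 4.81). The signalling receptor Cxcr4 lay opposite to both, with 764 counts (22.0 CPM) against 894 (33.4 CPM) and a log2 ratio of 0.60 (0.46 to 0.74). Markers of blood endothelium, a cell type known for Ackr3, summed to 105 CPM against 239 CPM. All 6 were higher in the library labelled extracranial, and none was at 0. The venule genes Selp and Sele, given below, lay in the direction of Ackr3. The part of these cells in the Ackr3 value was not tested.

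All 4 atypical receptors were higher in the library labelled intracranial by their ratio, and only Ackr3 was called. Ackr1, which carries chemokines across venule walls and is also present on red blood cells, had 758 counts (21.8 CPM) against 302 (11.3 CPM), a log2 ratio of -0.95 (-1.15 to -0.76). The venule genes Selp and Sele lay in the same direction, at 11.9 CPM against 1.16 CPM in sum, and Selp was called. Their part in the Ackr1 value was not tested, and 17.3% of the read-length windows of Ackr1 are shared with the overlapping gene Cadm3. Ackr4, which scavenges Ccl19, Ccl21 and Ccl25, had 17 counts against 2, a ratio of 6.55-fold with an interval of 1.55 to 58.4, or a log2 ratio of -2.13 with the 2 counts set to 3. Ackr2, a scavenger of inflammatory CC ligands, had 21 and 13 counts, and its interval spanned 0 (-1.44 to 0.75).

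Ligands of the lymphoid homing receptor Ccr7 were scarce, and they did not go with their receptor. Ccl21a (ENSMUSG00000094686) and Ccl21b (ENSMUSG00000095675), made by lymphatic endothelium and lymphoid stroma, had 43 and 45 counts in the library labelled intracranial and 1 count each in the library labelled extracranial. The ratios were 33.1-fold (5.63 to 1338) and 34.7-fold (5.91 to 1399), and both were called. With the single count set to the background of 3, the log2 ratios were -3.46 and -3.53. They cannot be read as separate genes, since 62.6% and 100% of their read-length windows occur in a near-identical copy. Ccl19 had 24 counts against 4, 4.62-fold higher (1.59 to 18.3), with 46% of its windows shared. Ccr7 (ENSMUSG00000037944), which guides mature dendritic cells and naive T cells to lymph nodes, was called in the opposite direction, with 34 counts (0.978 CPM) against 165 (6.17 CPM), 6.30-fold higher (4.34 to 9.40).

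Dendritic cell and lymphatic markers stood beside these values as follows. Dendritic cell markers summed to 24.8 CPM against 48.1 CPM, with 4 of 6 higher in the library labelled extracranial and none at 0. Itgax (14.9 CPM against 12.3 CPM) and Cd209a (15 counts against 8) lay the other way, the latter with an interval that spanned 0. Clec9a and Batf3, of cross-presenting dendritic cells, were called higher in the library labelled extracranial. Xcr1, the chemokine receptor of the same cells that the naming rule leaves out, was called with them (16 counts against 112), and its ligand Xcl1 had 7 and 25 counts. Lymphatic markers summed to 34.7 CPM against 9.01 CPM, but this came from Lyve1 (29.7 CPM against 0.673 CPM), which some macrophages also express. The other 3 of the 4 markers were higher in the library labelled extracranial by their ratio. One of these, Prox1, which defines the lymphatic lineage, had 9 counts in each library and an interval that spanned 0. Whether these cells account for the Ccl21 and Ccr7 values was not tested.

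The other homeostatic CC ligands differed little. All 7 of this group were higher in the library labelled intracranial by their ratio, beside 11650 of the 21977 genes tested. Besides Ccl21a and Ccl21b, 0 passed the 2-fold rule. Ccl25, the thymic and gut ligand of Ccr9, had 298 counts (8.58 CPM) against 190 (7.10 CPM), a log2 ratio of -0.27 (-0.54 to -0.01). Ccl27a, a skin chemokine that binds Ccr10, had 388 counts (11.2 CPM) against 252 (9.42 CPM), a log2 ratio of -0.25 (-0.48 to -0.01). Its near-identical copy Ccl27b had 47 and 32 counts, with an interval that spanned 0 (-0.87 to 0.50). Of the read-length windows of Ccl27a and Ccl27b, 34.5% and 98% are shared with copies. Ccl28, a mucosal ligand of Ccr10, had 148 counts (4.26 CPM) against 71 (2.65 CPM), a log2 ratio of -0.68 (-1.11 to -0.27). The receptors Ccr9 (20 and 14 counts) and Ccr10 (35 and 29 counts) had intervals that spanned 0.

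Among the remaining inflammatory CC ligands, only Ccl11 was called. Ccl11 (ENSMUSG00000020676), eotaxin, which attracts eosinophils through Ccr3, had 155 counts (4.46 CPM) in the library labelled intracranial and 10 counts (0.374 CPM) in the library labelled extracranial, 11.9-fold higher (6.32 to 25.4). Ccl24, another eotaxin, lay opposite, with 9 counts (0.259 CPM) against 41 (1.53 CPM), 5.92-fold higher in the library labelled extracranial (2.83 to 13.8). Their receptor Ccr3 had 79 counts (2.27 CPM) against 38 (1.42 CPM), a log2 ratio of -0.68 (-1.28 to -0.10). Mast cell and eosinophil markers were scarce, and all but Kit were at 0 in the library labelled extracranial, with Epx at 0 in both.

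The Ccr4 ligands Ccl17 and Ccl22, made by dendritic cells and some macrophages, parted. Ccl17 had 73 counts (2.10 CPM) against 39 (1.46 CPM), with an interval that spanned 0 (-1.13 to 0.05). Ccl22 had 73 counts (2.10 CPM) against 130 (4.86 CPM), a log2 ratio of 1.21 (0.78 to 1.64). Ccr4 had 7 and 3 counts, and the T cell attractant Ccl1 had 3 and 9 counts, both with intervals that spanned 0.

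Many of these genes lie in clusters, and neighbours could be compared in their order along the chromosome as RefSeq gives it. In the first chromosome 5 cluster, of Cxcl5, Ppbp, Pf4, Cxcl3, Cxcl15, Cxcl1 and Cxcl2, all genes with counts had ratios below 0, with Pf4 close to it. The separate chromosome 5 pair of Cxcl9 and Cxcl10 had ratios above 0. In the chromosome 4 cluster of Ccl27a, Ccl21b, Ccl27b, Ccl19 and Ccl21a, all ratios were below 0 too. Ccl27a at -0.25 and Ccl27b at -0.18 lay close to 0, and these genes share sequence with near-identical copies. The chromosome 11 and chromosome 9 clusters were mixed. In the chromosome 11 cluster of Ccl2, Ccl7, Ccl11, Ccl12, Ccl8 and Ccl1, Ccl11 with a log2 ratio of -3.58 lay between Ccl7 at 1.10 and Ccl12 at 0.78. In the other chromosome 11 cluster, Ccl5 at 1.22 was followed by Ccl9, Ccl6, Ccl3 and Ccl4, all below 0. The receptor cluster on chromosome 9 held Xcr1 at 3.18 and Ccr2 at 3.17, with Ccr1 at 0.32 and Ccr3 at -0.68 between them.

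**Figure D3:**
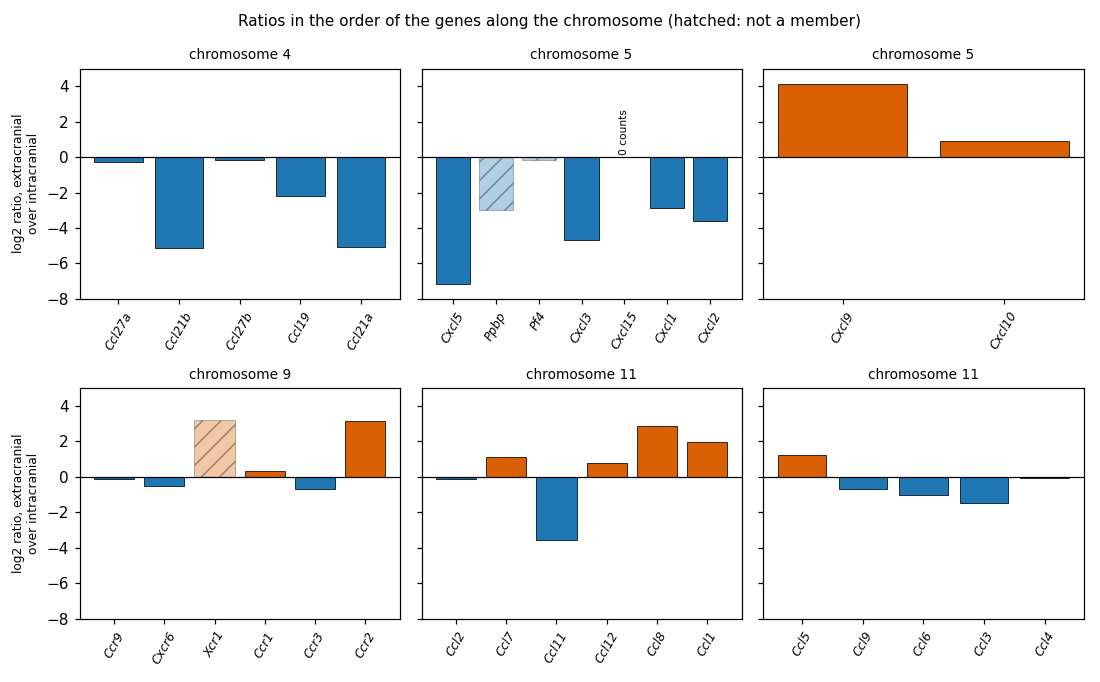
Log2 ratio of the library labelled extracranial over the library labelled intracranial for neighbouring chemokine and receptor genes, each panel 1 cluster with genes in chromosome order and not to distance. Solid bars are members, hatched bars are genes outside the naming rule, and Cxcl15 had 0 counts in both. Bars of the chromosome 4 cluster and of the cluster from Cxcl5 to Cxcl2 all point down. Those of the chromosome 9 and chromosome 11 clusters point both ways.

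Levels of different genes were compared as CPM per kilobase of exon. In the library labelled intracranial the order began with Ccl2 (428), Ccl12 (143), Ccl6 (107) and Ccl8 (96.3), each in CPM per kilobase. In the library labelled extracranial it began with Ccl8 (696), Ccl2 (394), Ccl12 (244) and Ccl7 (155). Ccl2 lay above 99.3% of protein-coding genes in both libraries by this measure. Ccr2 stood at rank 22 of the family in the first (8.79 CPM per kilobase) and at rank 6 in the second (79.0 CPM per kilobase), and Ackr3 at rank 6 and rank 16.

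Beyond the members, 47 further genes of the chemokine pathway were followed, of which 46 had 10 or more counts. They were 8 chemokines and receptors outside the naming rule, 27 signalling and trimming genes and 12 inducers of chemokine genes. By the 4-fold rule 2 were higher in the extracranial library (4.35%, against 1.78% of all genes) and 5 in the intracranial library (10.9%, against 5.41%), and their median log2 ratio was 0.65, beside -0.04 over all genes. The 2 were Xcr1 and Rac2, a GTPase of blood cells that drives migration, at 41.0 CPM against 206 CPM. The 5 were Ppbp, Il1a and Il17a, given above, with the G protein subunit Gnai1 (8.61 CPM against 1.23 CPM) and the receptor kinase Grk5 (76.2 CPM against 8.78 CPM). Of the 27 signalling and trimming genes alone, 22 were higher in the library labelled extracranial by their ratio, beside 10327 of 21977 genes tested. By the 4-fold rule 1 was higher there (3.7%, against 1.78% of all genes) and 2 in the other library (7.41%, against 5.41%). By the 2-fold rule 7 were higher there (25.9%, against 5.86% of all genes) and 2 in the other library (7.41%, against 9.77%). Macrophage markers, with a log2 ratio of 1.17 in sum, lay in the direction of the 22 genes, and their part was not tested. Cx3cl1, the ligand of Cx3cr1, lay opposite to its receptor, with 129 CPM against 43.9 CPM and a log2 ratio of -1.56 (-1.65 to -1.47).

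**Figure D4:**
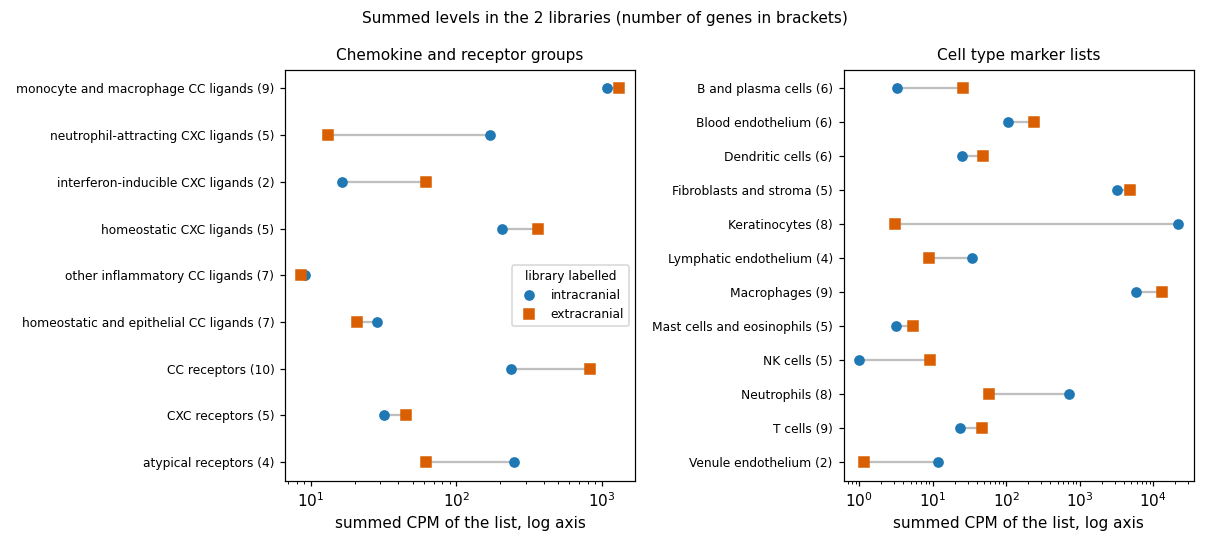
Summed CPM of the chemokine and receptor groups (left) and of the cell type marker lists (right) in both libraries, on log axes, with the number of genes in brackets. Circles stand for the library labelled intracranial and squares for the library labelled extracranial. Neutrophil-attracting ligands (171 against 13.2 CPM) lie on the same side as the neutrophil and keratinocyte lists. The CC receptor sum (239.6 against 827 CPM) lies on the same side as the macrophage list. Ccr2 alone holds 59.4 and 534 CPM of that sum, and Ccr3, Ccr4 and Ccr9 had ratios on the other side.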

How the data were processed

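RNA of 2 mouse tumors was measured by bulk RNA-seq. The deposited values are raw counts of reads for Ensembl genes. From poly(A) RNA the authors made directional libraries (NEBNext Ultra II), sequenced single reads, aligned them with STAR 2.7.9a at default settings to GRCm39 and counted reads per gene with featureCounts. Strand setting and treatment of reads with several alignments are not given in the sources used here, so near-identical or overlapping genes are uncertain. Samples were grouped by the localization label, 1 library per location, and 0 columns were left out.

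Symbols, biotypes and exon lengths came from GENCODE M21, older than the annotation the authors counted on, and 94.08% of IDs had a symbol. IDs without one held 0.694% and 0.95% of the counts and stayed in library sizes. The share of a gene's 72-base windows that also occur in another gene was taken from the exon sequence. TMM factors from edgeR 4.0.16 (R 4.3.3), 1.006 and 0.9942, scaled the library sizes, and CPM were taken per 1000000 of the scaled counts. With 1 library per location, edgeR's quasi-likelihood test could not be fitted. Ratios were given the conditional exact binomial (Clopper-Pearson) 95% interval (scipy 1.17.1). No molecular identifiers are described, so reads are not independent molecules, and intervals and floors cover counting error only. The ratio code was tested on simulated counts. Alternatives were upper quartile scaling, DESeq2 1.42.0 size factors, unscaled totals, 100 or more counts, no filter, an interval beyond 2-fold, the ratio alone and a prior count of 2.

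Members, gene lists and roles were chosen with earlier results of these data known. Every member could be named, and genes of the fixed lists where they were called or where a ligand or receptor value turned on them, besides Smarcb1. Promoter windows are those of RefSeq (GRCm38.p6). Some receptors and list genes are not reported here, either left out of the members or included in counts and sums without their names.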

Additional observations from a re-analysis of the deposited data

How the results depend on the processing

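No paired analysis was possible because only 1 library stood for each location, and for the same reason no library could be left out. Beyond 4-fold, the counts of called members (5 higher in the library labelled extracranial, 9 in the library labelled intracranial) were the same with upper quartile scaling, DESeq2 size factors and unscaled totals. With the interval beyond 2-fold, 9 members and 10 genes of the pathway list were higher in the library labelled extracranial, against 5 and 2, and 11 members and 6 genes of that list in the library labelled intracranial, against 9 and 5. With no filter on counts 5 and 9 members were called, with 100 or more counts 5 and 6, by the ratio alone 6 and 11, and by the ratio after adding a prior count of 2 to each library 6 and 9. Without 5 ligands that share read-length windows with copies, an alternative chosen after seeing the data, 5 and 7 were called. Upper quartile scaling moved the summed level of all members from 2046 to 2019 CPM (intracranial) and from 2721 to 2757 CPM (extracranial), more than its counting interval. Of 192 member ratios under the 3 other scalings and the prior count, 192 kept their direction, and under the 3 scalings each member also kept its side of the 4-fold rule. Counting error is the only error these values carry, and how much tumors of 1 location differ cannot be told from 1 library.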
